A study of Mus musculus with 4 samples.

Results

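The SREBP1 and lipogenesis genes are a set of 10 genes, named by symbol, that make fatty acids and start their assembly into lipids: Srebf1, Mlxipl, Acly, Acaca, Me1, Fasn, Elovl6, Scd1, Scd2 and Gpam. They were taken by name from the 38924 genes counted in each kidney library, by a list of names drawn up with earlier results of these data known, and all 10 passed the filter on low counts, as did 16334 genes in all. The kidneys came from female CB-17 SCID mice, a Balb/c background strain that lacks functional B and T cells. The age of the animals is not used here. The saline group (2 libraries) received saline into the tail vein, and the immune complex group (2 libraries) received complexes of IgG with galactose-deficient IgA1, the antigen of IgA nephropathy, by the same route. Injections were given 3 times within 7 days, and part of a kidney was taken the day after the last of them. The preformed complexes stand in for those that patients form themselves, in mice without working lymphocytes. Whether the libraries are from separate animals is not in the labels, and the tests therefore cover only the spread among these 4 libraries, which may be technical.

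SREBP-1, the product of Srebf1, is a transcription factor that is made as a membrane protein of the endoplasmic reticulum and is cut free to enter the nucleus, where it raises transcription of the enzymes of fatty acid synthesis. ChREBP, the product of Mlxipl, drives many of the same enzymes when glucose is plentiful. The pathway turns citrate into acetyl-CoA and malonyl-CoA, builds palmitate, lengthens and desaturates it, and attaches the fatty acids to glycerol. It is most active in liver and fat tissue, and in kidney it is known for a rise with diabetes and fatty diets.

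Total reads assigned to genes were 19675879 to 22791960 per library. Kidney markers were abundant in every library, with the 8 proximal tubule markers summing to 8087 to 9319 CPM (read counts scaled to a common library size, with the TMM correction). The 6 B and T cell markers summed to 0.851 to 1.48 CPM, most of it Cd8a. The libraries also held fat markers in very different amounts, described with the results below, and the brown fat gene Ucp1 ranged from 0.0492 CPM in saline 1 to 54.8 CPM in immune complex 1.

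For each of Fasn, Srebf1 and Gpam the stretch before a start site is shown. These are the enzyme with the largest fold change, the transcription factor that names the set, and the gene with the lowest p-value. RefSeq windows on GRCm38.p6 were matched for 8 of the 10 genes (13 windows, some genes having several starts), and the 250 bases upstream of the start are used here. Capitals mark every match, on either strand, to TCACCC (the first bases of the sterol response element read by SREBP), CCAAT (the NF-Y box), GGGCGG (the GC box read by Sp1) and CACGTG (the E-box). Each sequence runs 5′ to 3′ on the minus strand and ends at the base before the start site, and the Srebf1 window belongs to the downstream start, that of the SREBP-1c form.
Fasn, chr11:120824548-120824797: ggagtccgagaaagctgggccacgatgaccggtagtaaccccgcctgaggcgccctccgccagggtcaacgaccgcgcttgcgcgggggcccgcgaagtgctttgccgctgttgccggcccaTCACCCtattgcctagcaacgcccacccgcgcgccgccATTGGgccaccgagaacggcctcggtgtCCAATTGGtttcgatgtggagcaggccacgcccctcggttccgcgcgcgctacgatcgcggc
Srebf1, chr11:60210472-60210721: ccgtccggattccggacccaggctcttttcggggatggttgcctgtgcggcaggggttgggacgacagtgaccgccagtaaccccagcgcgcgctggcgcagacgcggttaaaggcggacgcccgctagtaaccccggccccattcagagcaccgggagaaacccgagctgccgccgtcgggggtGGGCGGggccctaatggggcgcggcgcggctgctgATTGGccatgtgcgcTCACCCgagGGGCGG
Gpam, chr19:55127239-55127488: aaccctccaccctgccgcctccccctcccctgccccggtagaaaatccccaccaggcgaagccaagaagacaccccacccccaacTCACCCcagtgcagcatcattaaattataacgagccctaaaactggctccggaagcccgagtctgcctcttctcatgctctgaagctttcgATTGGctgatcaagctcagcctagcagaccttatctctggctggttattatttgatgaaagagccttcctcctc
In the Fasn window TCACCC began 128 bases before the start, and CCAAT matches began 90, 62 and 59 bases before it, the last 2 overlapping on opposite strands. In the Srebf1 window a CCAAT match lay 30 bases and TCACCC 15 bases before the start, with GC boxes at 65 and 6 bases. The Gpam window shown, before the upstream start at 55127238, held TCACCC at 165 and CCAAT at 74 bases. The other Gpam window, before the start at 55099477, held GGGCGG at 16 bases and no TCACCC or CCAAT. The Gpam region used for counting ended at 55099451, next to that downstream start. TCACCC was found in 4 of the 13 windows (of Me1, Srebf1, Fasn and Gpam) and in 13.8% of all 32851 RefSeq windows of this length, CCAAT in 6 of 13 against 33.8%, GGGCGG in 6 of 13 against 32.7%, and CACGTG in 1 of 13 (of Mlxipl) against 6.02%. The Mlxipl matches lay before the start at 135089890, while the window before 135106891, where the region used for counting began, held none. The other Srebf1 windows held no TCACCC. All these matches describe the sequence only, and the gene counts do not separate transcripts by start site.

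None of the 10 genes passed the comparison of immune complex with saline kidneys, while all 10 had a higher fitted level in the immune complex group. The largest differences were in Fasn, at 2.84 times the saline mean, and Acaca, at 2.05 times, and the smallest in Elovl6 and Scd2, at 1.08 and 1.04 times. edgeR's quasi-likelihood test with Benjamini-Hochberg adjustment over 16334 genes called 0 of the 10 and 0% of all genes, and the adjusted p was 0.999968 for each of the 10. DESeq2 also called 0 of the 10, against 0.214% of all genes called higher and 0.338% lower, and limma-voom called 0 of the 10 and 0% of all genes. At an unadjusted p under 0.05 the edgeR fit had 1 of the 10 higher (Gpam) and none lower, against 1.98% of all genes higher and 2.6% lower. The median log2 fold change was 0.43 for the 10 and 0.01 for all genes tested, and a positive fold change was found for 10 of 10 against 51.9% of all genes. The groups did not overlap, with immune complex higher, for 5 of the 10 (Acly, Acaca, Fasn, Scd1 and Gpam) against 15.4% of all genes.

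Those 5 separations were narrow. The lower immune complex library stood above the higher saline library by a factor of 1.21 for Gpam, 1.13 for Acaca, 1.10 for Fasn, 1.04 for Scd1 and 1.01 for Acly. On the deposited RPKM scale (reads scaled to exon length and library total, without TMM scaling) Acly overlapped, with 41.5 in saline 2 and 40.9 in immune complex 2. Saline 1 and saline 2 differed from each other by a median of 0.69 on the log2 scale over the 10 genes, against 0.17 over all genes tested. Immune complex 1 and 2 differed by a median of 0.56 over the 10 and 0.35 over all genes.

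**Figure D1:**
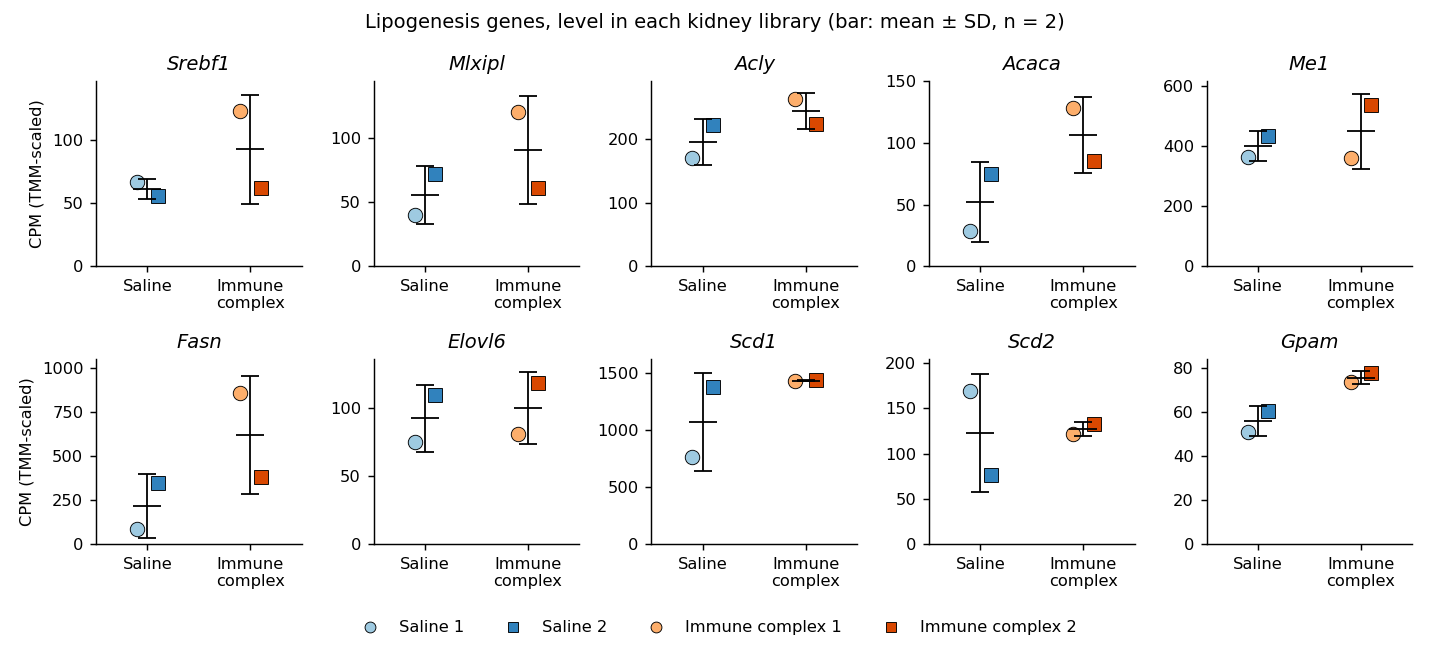
Level of each of the 10 genes in each library, in TMM-scaled CPM from 0, with saline libraries in blue and immune complex libraries in orange and the mean ± SD of 2 libraries in black. Fasn ranges from 90.2 CPM in saline 1 to 858 CPM in immune complex 1, with the other libraries at 346 and 383 CPM.

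Of the transcription factors, Srebf1 was read at 66.4 CPM in saline 1, 55.5 in saline 2, 123 in immune complex 1 and 62.0 in immune complex 2. A single library, immune complex 1, was high, and immune complex 2 lay between the saline values. The log2 fold change was 0.60 ± 0.32 (SE), with a 95% interval from -0.17 to 1.37, and without immune complex replicate 1 it was 0.03. Mlxipl was read at 39.7 CPM in saline 1, 71.9 in saline 2, 121 in immune complex 1 and 61.0 in immune complex 2. Immune complex 1 was again the highest, saline 1 was the lowest, and the groups overlapped. Its log2 fold change was 0.70 ± 0.39, from 0.13 with immune complex 1 left out to 1.18 with saline 2 left out. Per exon length Srebf1 exceeded Mlxipl 1.64 times in saline 1, while in saline 2 it reached 0.787 times the level of Mlxipl and in immune complex 1 and 2 the levels were nearly equal.

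Of the enzymes that supply precursors, Acly, the ATP citrate lyase that makes cytosolic acetyl-CoA, was read at 169.7 CPM in saline 1, 221 in saline 2, 263 in immune complex 1 and 224 in immune complex 2. Saline 1 was low and the other libraries were close to each other. The log2 fold change was 0.32 ± 0.21 (interval -0.18 to 0.82), 0.14 with saline 1 left out, 0.20 with immune complex 1 left out and 0.51 with saline 2 left out. Acaca, the acetyl-CoA carboxylase that makes malonyl-CoA and commits it to fatty acids, was read at 28.9 CPM in saline 1, 75.2 in saline 2, 128 in immune complex 1 and 85.0 in immune complex 2. Saline 1 was again low, immune complex 1 was the highest, and the groups did not overlap. The log2 fold change was 1.03 ± 0.44 (interval -0.02 to 2.09). Without saline replicate 1 the log2 fold change was 0.50, and without saline replicate 2 it was 1.87 with an adjusted p of 0.00203 in edgeR's test. Me1, the cytosolic malic enzyme that yields NADPH for the synthesis, was read at 364 CPM in saline 1, 434 in saline 2, 361 in immune complex 1 and 538 in immune complex 2. The replicates numbered 2 were the higher in each group, and the log2 fold change of 0.17 ± 0.24 (interval -0.41 to 0.75) was smaller than its standard error.

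Fasn, the multi-domain synthase that builds palmitate, was the most variable gene of the 10, spanning 9.52-fold between its lowest and highest library. It was read at 90.2 CPM in saline 1, 346 in saline 2, 858 in immune complex 1 and 383 in immune complex 2. The difference within the saline group (3.84-fold) was larger than the difference of the group means (2.84-fold), and saline 2 and immune complex 2 were within a factor of 1.10. The log2 fold change was 1.51 ± 0.64 (SE, n = 2 each), with an interval from -0.03 to 3.04. Leaving out saline 1 gave 0.84, and leaving out immune complex 1 gave 0.81. Without saline replicate 2, when saline 1 is the only control and is assumed to vary like the other group, it was 2.77 with an adjusted p of 2.01e-07 in edgeR's test, and Fasn and Acaca were then the members called, against 0.726% of all genes called higher in that fit. Relative to Acly on the RPKM scale, Fasn stood at 0.288 in saline 1, 0.854 in saline 2, 1.78 in immune complex 1 and 0.927 in immune complex 2.

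**Figure D2:**
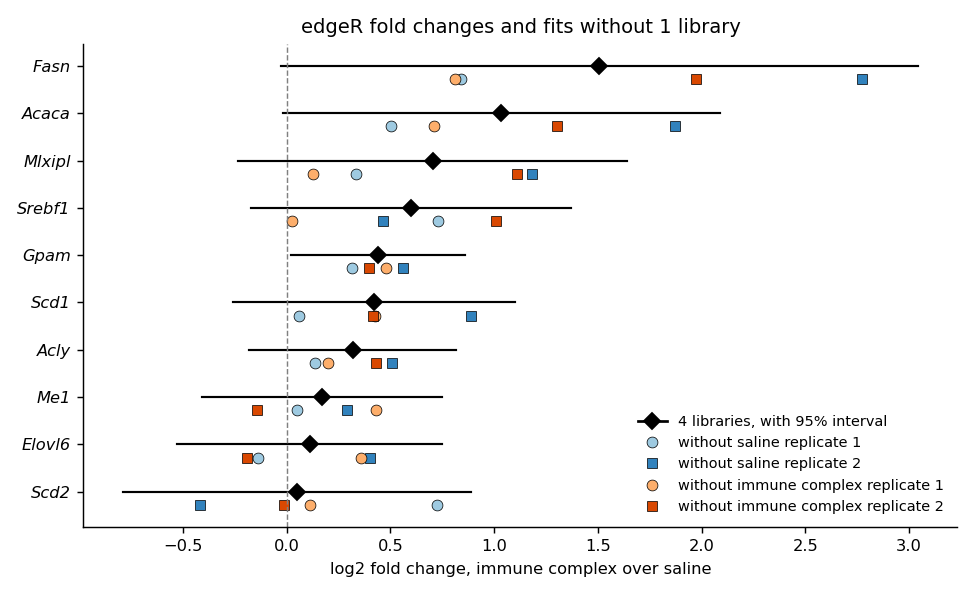
log2 fold change of immune complex over saline for each gene in the edgeR fit, with its 95% interval (black) and, below it, the value with 1 library left out (coloured points). Intervals of 9 of the 10 genes include 0, and for Fasn the values without a library run from 0.81 to 2.77.

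The genes that lengthen and desaturate palmitate had smaller fold changes than Fasn. Elovl6, which lengthens palmitate to stearate, was read at 74.9 CPM in saline 1, 109.6 in saline 2, 80.9 in immune complex 1 and 118 in immune complex 2. Like Me1 it was higher in the replicates numbered 2, and of all pairs among the 10 genes, Me1 and Elovl6 had the most similar profile (distance of centred log2 CPM over 4 libraries, 0.213). Its log2 fold change of 0.11 ± 0.27 (interval -0.53 to 0.75) changed sign with the libraries left out. Scd1, the desaturase that makes oleate from stearate, was read at 771 CPM in saline 1, 1379 in saline 2, 1432 in immune complex 1 and 1443 in immune complex 2. Saline 1 alone was low, the other libraries lay close together, and the log2 fold change of 0.42 ± 0.28 was 0.06 without saline replicate 1. Scd2, a desaturase of the same reaction and a neighbour of Scd1 on chromosome 19, was read at 169 CPM in saline 1, 76.9 in saline 2, 122 in immune complex 1 and 133 in immune complex 2. It was the only one of the 10 to be highest in saline 1, and its log2 fold change was 0.05 ± 0.35 (interval -0.79 to 0.89).

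The ratio of Scd1 to Scd2 on the RPKM scale was 5.17 in saline 1 and 20.2 in saline 2, with 13.3 and 12.3 in the immune complex libraries between them. Reads placed at 1 location made up 94.8% to 96.5% of the reads of these desaturase genes, so a small part of their reads fits more than 1 place in the genome and its split is uncertain. Gpam, the mitochondrial acyltransferase that attaches the first fatty acid to glycerol 3-phosphate, was read at 50.9 CPM in saline 1, 60.5 in saline 2, 73.4 in immune complex 1 and 77.5 in immune complex 2. Its replicates lay close together in each group, and it was the most even of the 5 genes whose groups did not overlap. The log2 fold change was 0.44 ± 0.18 (interval 0.02 to 0.86), from 0.32 to 0.56 with single libraries left out.

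Per exon length, Scd1 was the most abundant of the 10 at 258 ± 62.4 RPKM (mean ± SD of all 4 libraries), above the level of 99.0% of genes tested. Me1 followed at 129 ± 23.5 RPKM, and the ranges of Scd1, Me1 and the next genes did not touch. Fasn (42.0 ± 31.6) and Acly (40.8 ± 6.20) could not be ordered, because their ranges over libraries overlapped, and the range of Fasn also overlapped those of Scd2 (22.9 ± 7.24), Gpam (16.5 ± 2.56), Elovl6 (15.7 ± 3.35), Srebf1 (13.3 ± 5.18), Mlxipl (12.5 ± 5.34) and Acaca (6.26 ± 3.13). From Scd2 on, each range overlapped the next in this order. Acaca had the lowest mean, and its range, from 2.35 to 10.01 RPKM, overlapped those of Mlxipl, Srebf1 and Fasn.

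**Figure D3:**
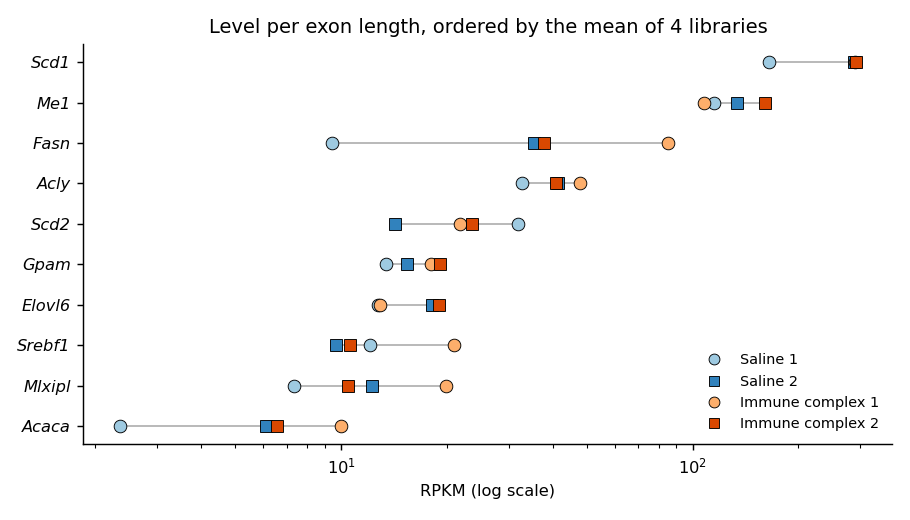
RPKM of each gene in each library on a log axis, ordered from the highest mean (Scd1, 258 RPKM) to the lowest (Acaca, 6.26 RPKM), with a grey line joining the lowest and highest library. The widest line is that of Fasn, from 9.44 to 85.2 RPKM.

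Saline 1 was the lowest library for 7 of the 10 genes (Mlxipl, Acly, Acaca, Fasn, Elovl6, Scd1 and Gpam), as it was for 23.0% of all genes tested. Immune complex 1 was the highest for 5 (Srebf1, Mlxipl, Acly, Acaca and Fasn), against 29.9% of all genes, and immune complex 2 for 4 (Me1, Elovl6, Scd1 and Gpam), against 33.5%. The summed white fat markers had the same low library and the same high library as Fasn, although Lep, Cidec, Retn and Plin4 were highest in immune complex 2. The 11 white adipocyte markers summed to 79.5 CPM in saline 1, 519 in saline 2, 1569 in immune complex 1 and 1163 in immune complex 2. All 11 had a positive log2 fold change (median 2.30), as did 51.9% of all genes, and none passed. Of the 11, 10 did not overlap between groups, with immune complex higher, against 15.4% of all genes. In the edgeR fit 4 were higher at an unadjusted p under 0.05, against 1.98% of all genes. Among the defining markers, Lep had 0 reads in saline 1 and 22, 138 and 270 in the other libraries, and Adipoq, which encodes adiponectin, had 3, 527, 1960 and 1664. The 4 brown fat markers summed to 20.2, 71.7, 165 and 23.9 CPM in the same order of libraries. The part of fat markers in the differences of the lipogenesis genes was not tested, and in pieces of tissue fewer cells of a type and less RNA per cell cannot be told apart.

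Saline 1, the library with the lowest sum of fat markers, held 1833 reads of Fasn, 588 of Acaca, 7407 of Me1 and 15672 of Scd1. In the same library the white fat markers ranged from 0 reads of Lep and 3 of Adipoq to 421 of Lipe and 1069 of Fabp4. From saline 1 to saline 2, both without immune complexes, Fasn differed by 1.94 on the log2 scale, Acaca by 1.38, Mlxipl by 0.85 and Scd1 by 0.84, whereas Scd2 differed by -1.13 and Srebf1 by -0.26. From immune complex 2 to immune complex 1, Fasn differed by 1.17, Srebf1 and Mlxipl by 0.98 each and Acaca by 0.59, whereas Me1 differed by -0.57 and Elovl6 by -0.55. Macrophage markers summed to 151, 158, 179 and 219.6 CPM in saline 1 and 2 and immune complex 1 and 2. All 7 had a positive log2 fold change (median 0.52), as did 51.9% of all genes, and none was called. Of the 7, 4 did not overlap between groups, with immune complex higher, against 15.4% of all genes. In the edgeR fit 3 were higher at an unadjusted p under 0.05, against 1.98% of all genes. These were Adgre1 (1.29 ± 0.28), Lyz2 (0.98 ± 0.24) and Ctss (0.94 ± 0.25). The others were Cd68 (0.52 ± 0.32), C1qa (0.30 ± 0.25), C1qb (0.28 ± 0.23) and Csf1r (0.03 ± 0.22). The part of macrophage markers in the differences of the lipogenesis genes was not tested. The 8 proximal tubule markers, of the main epithelium of the cortex, had a median log2 fold change of -0.06. The 8 markers of other nephron parts had a median log2 fold change of -0.15, with 2 higher and 6 lower and none called. Of the 8, 2 did not overlap with immune complex lower, against 14.6% of all genes, and 1 with immune complex higher, against 15.4%. Those lower were the principal cell genes Aqp2 (-1.44 ± 0.53) and Fxyd4 (-1.24 ± 0.29). Aqp2 was highest in saline 1 (1704 CPM, against 302 to 544 CPM in the others), the library lowest for most of the lipogenesis genes. Slc12a3 and Nphs1 of the same list were highest in immune complex 1. The part of these markers in the differences of the lipogenesis genes was not tested either.

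**Figure D4:**
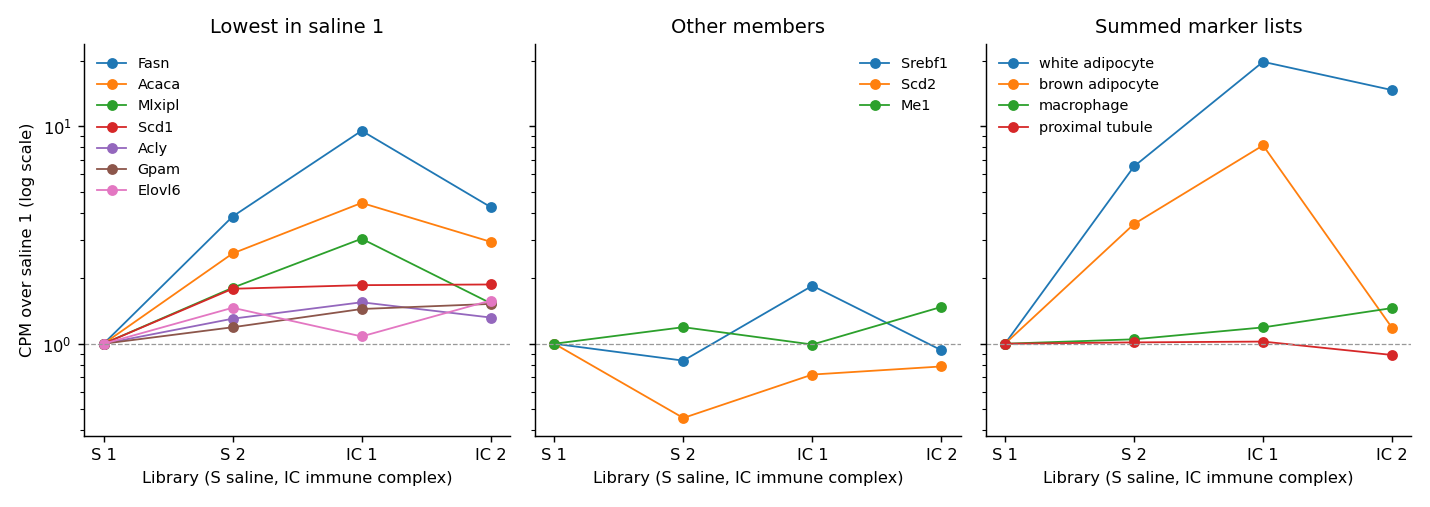
CPM of each gene and of summed marker lists, divided by the value in saline 1, on a log axis for the 4 libraries, with lines joining the values of 1 gene or list. Fasn reaches 9.52 times its saline 1 level in immune complex 1, where the summed white adipocyte markers are also highest. The sum of the proximal tubule markers stays close to 1, though single markers of that list moved in either direction.

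Of 17 genes that control SREBP and ChREBP 9 were higher and 8 lower, against 51.9% of all genes higher. None was called, as for 0% of all genes, and the median log2 fold change was 0.02. The groups did not overlap for 4 with immune complex higher and 2 with it lower, against 15.4% and 14.6% of all genes. Insig1, which holds SREBP in the endoplasmic reticulum and is itself an SREBP target, was read at 40.0 CPM in saline 1, 35.7 in saline 2, 85.0 in immune complex 1 and 77.5 in immune complex 2. Its replicates lay close together and the groups did not overlap, at a log2 fold change of 1.10 ± 0.17 and an adjusted p of 0.457 in edgeR's test. Scap, the escort that carries SREBP to the Golgi, differed by -0.27 ± 0.17. Insig2 differed by 0.07 ± 0.19, and Srebf2, the sterol-responsive relative of Srebf1, by -0.24 ± 0.22. Of the oxysterol receptors, Nr1h3 differed by 0.11 ± 0.16 and Nr1h2 by -0.31 ± 0.22, and the NF-Y subunit Nfyc differed by 0.20 ± 0.16.

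Of 22 other genes of fatty acid synthesis 20 were tested, 11 higher and 9 lower with none called (median 0.06), against 51.9% of all genes higher. Thrsp, the lipogenic regulator Spot14, was read at 2.36 and 68.5 CPM in the saline libraries and at 213 and 101 CPM in the others, and Pnpla3, a lipid droplet protein, at 0.738, 9.37, 28.01 and 9.40 CPM in the order saline 1, saline 2, immune complex 1, immune complex 2. Like Fasn, both were lowest in saline 1 and highest in immune complex 1. Elovl3, an elongase of very long chains, had 0, 12, 49 and 31 reads in that order. Acacb, the carboxylase isoform at mitochondria, was also highest in immune complex 1 (145 CPM, against 59.8 to 90.6 CPM) at 0.53 ± 0.36. The acetate-activating enzyme Acss2 differed by -0.07 ± 0.17, Mid1ip1 by -0.35 ± 0.23, and the polyunsaturated fatty acid genes Elovl5, Fads1 and Fads2 by 0.15 ± 0.19, -0.19 ± 0.16 and -0.10 ± 0.16.

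For the lists that follow, the share of all genes tested that were higher was 51.9%, with 0% called. The list of 8 other genes of NADPH supply and linked pathway steps had 4 higher and 4 lower and none called. In that list the malic enzymes of mitochondria Me2 and Me3 differed by -0.28 ± 0.27 and -0.24 ± 0.17, Idh1 by 0.19 ± 0.18 and G6pdx, which opens the pentose phosphate pathway, by 0.15 ± 0.19. Of 14 glycerolipid genes 7 were higher and 7 lower, with none called. Agpat2, which adds the fatty acid after Gpam, was read at 34.6 CPM in saline 1, 51.1 in saline 2, 108 in immune complex 1 and 58.2 in immune complex 2, at a log2 fold change of 0.95 ± 0.33. Immune complex 1 was the high library, as for Fasn. Lpin1 differed by 0.32 ± 0.17, Dgat2, which makes triglyceride, by 0.41 ± 0.25, Gpat3 by 0.25 ± 0.19 and Gpd1 by 0.20 ± 0.29. Cholesterol synthesis genes were higher for 11 of 19 and lower for 8, none called, with a median of 0.03, and Hmgcs1, which makes the HMG-CoA of that pathway, differed by 0.08 ± 0.23. The 4 lowest p-values of that list were those of Sc5d (0.28 ± 0.20), Pmvk (0.24 ± 0.20), Fdps (-0.24 ± 0.22) and Fdft1 (0.17 ± 0.17).

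Profiles of other genes were compared with the 10 by the distance of centred log2 CPM over the 4 libraries, as a description. Nearest to Fasn were Amy1 (0.383), Pparg (0.459), Cd1d1 (0.481), Sh2b2 (0.49) and Trarg1 (0.614). Of these, Pparg is also in the list of white adipocyte markers. Whether Amy1 shares reads with other amylase genes was not checked. Nearest to Scd1 were Myh11 (0.163), Mrps30 (0.171), Tenm4 (0.181), Ebf1 (0.185) and Dna2 (0.193). Among the nearest to Srebf1 were Slc2a4 (0.254), Slco2b1 (0.256), Wfdc16 (0.261) and Rasgrp2 (0.262). Each was highest in immune complex 1, as Srebf1 was, which follows from choosing them by profile.

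Reads of the 10 genes lay mostly in exons. Intron reads were highest for Mlxipl, at 4.08% of its reads in saline 1 (95% Wilson interval 2.92% to 5.68%), 9.15% in saline 2 (7.80% to 10.7%), 9.65% in immune complex 1 (8.60% to 10.8%) and 5.81% in immune complex 2 (4.66% to 7.22%). The share was higher in the libraries with most Mlxipl reads. Over all genes the intron share was 8.29% in saline 1, 8.90% in saline 2, 9.96% in immune complex 1 and 7.39% in immune complex 2. Intervals cover counting error only. For Fasn the share was 0.0683% to 0.218% and for Scd1 0.0309% to 0.0657%, and exon reads alone put Fasn at 90.0, 346.1, 857 and 382 CPM. Several of the genes overlap other annotated genes in GENCODE M21, among them Srebf1 with Rai1 on the opposite strand, and as no source used here gives the strand setting, reads of such partners cannot be told apart.

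The authors' deposited table called none of the 10 and 80 of the 14877 genes to which it gives an adjusted p (0.538%), at an adjusted p of 0.396 for Acaca and 0.999956 for the other 9. Coded as saline over immune complex, its log2 fold changes were -0.58 ± 0.21 (SE) for Acaca, -0.42 ± 0.21 for Mlxipl, -0.38 ± 0.20 for Srebf1 and -0.34 ± 0.18 for Gpam. The summed reads in the same table, not scaled to library size, give log2 ratios of -1.10, -0.78, -0.68 and -0.50 for these genes. For Fasn the authors' deposited table gives -0.22 ± 0.15, while its reads give a log2 ratio of -1.57 for saline over immune complex. All 10 deposited fold changes were closer to no change than the read ratios, and the gap was widest for Fasn. The cause of these gaps was not tested.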

How the data were processed

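Kidney RNA was extracted and sequenced by GeneWhiz with Illumina library chemistry, per the labels' protocols. STAR 2.5.2b, DESeq2 and GRCm38 appear, without roles, in the submitters' processing notes. No source used here gives the read counter, annotation release or strand setting. The deposited tables hold raw read counts per gene and RPKM values made by the authors, per the file headers. The authors' comparison table holds log2 fold changes and p-values, per the file headers. Its sign was checked against the reads: all 80 genes it calls have that of saline over immune complex.

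Total gene reads (exon plus intron) were tested with edgeR 4.0.16 under R 4.3.3 (glmQLFit and glmQLFTest after filterByExpr and TMM scaling, Benjamini-Hochberg threshold 0.05), with all 4 libraries and no block. Standard errors are the fold change over the square root of F, and 95% intervals use the fit's total degrees of freedom. With 2 libraries a group, precision is limited by their number. Replicate counts differed by more than sampling noise (chi-square over its degrees of freedom 18.2 for saline, 61.2 for immune complex). The procedure was tested on simulated data. Alternatives were DESeq2 1.42.0, limma-voom (limma 3.58.1), DESeq2 size factors, exon or unique reads, no filter, a replicate block and leaving out each library.

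The members and all 15 gene lists (148 entries, all found, by gene ID for older symbols) were chosen with earlier results of these data known. Named were all members, the 4 genes with the lowest p of each pathway list with a preset group of regulators and enzymes, and the 5 nearest profiles to Fasn, Scd1 and Srebf1 among genes of at least 5 CPM. Some genes under this rule are not reported here. Aqp2, Fxyd4, Slc12a3, Nphs1, Pparg, Acacb and the named fat and macrophage markers illustrate lists or differences. Of these, Aqp2, Fxyd4, Slc12a3, Nphs1, Lep, Lipe, Retn, Plin4 and the macrophage markers were chosen for naming after their values were seen. Of the lists of adrenal cortex, skeletal muscle and hepatocyte markers, sums reached 3.45, 1.13 and 69.9 CPM at most.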

Additional observations from a re-analysis of the deposited data

How the results depend on the processing

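The median log2 fold change of the 10 genes stayed between 0.33 and 0.53 in every alternative. Of 120 values (10 genes under 12 alternatives) 111 kept their direction and stayed uncalled, 4 became calls and 5 changed sign. Those that changed sign did so with a library left out: Elovl6 ranged from -0.19 to 0.40, Me1 from -0.14 to 0.43 and Scd2 from -0.42 to 0.72. Fits without 1 library called 0 to 2 of the 10 genes and 0 to 279 of all genes, where all 4 libraries gave 0 and 0. The highest counts, 2 and 279, came without saline replicate 2. Leaving out saline replicate 1 gave 47 calls over all genes, and leaving out an immune complex library gave 0. Over all genes DESeq2 called 93, the fit with no filter 2 and the fit on unique reads 1. The cause was not tested. The labels do not say that replicate numbers pair the libraries. The replicate block called 55 genes and 0 of the 10. Deviations of same-numbered libraries correlated at -0.13 across genes, and the crossed pairing, added after seeing the data, called 160 genes and 2 of the 10. The lowest count of any of the 10 genes in a library was 588 reads, and each group had 2 libraries.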
